A study of Mus musculus with 180 samples.

Results

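The 10 genes described here make, break down or receive prostaglandins and leukotrienes, and they were taken by symbol from the deposited table of 13820 genes. They were Pla2g4a, Ptgs1, Ptgs2, Ptges, Ptgis, Ptgds, Hpgd, Alox5, Alox5ap and Ptger4. The study measured RNA by sequencing tags at the 3′ end of polyadenylated transcripts in 180 libraries, 1 for each of 15 tissues in each of 12 female mice aged 6 weeks. Mice 1 to 4 were C57BL/6J and received PBS. Mice 5 to 8 were C57BL/6J and received LPS, a cell wall component of bacteria, at 5 mg/kg. Mice 9 to 12 carried the Tnf deletion of the line B6.129S-Tnftm1Gkl/J and received the same dose of LPS, and these are called TNFKO LPS below. Tissues were taken 12 hours after PBS or LPS was given, once the animal had been perfused with PBS and EDTA. There was no TNFKO group without LPS, so what the allele or strain does by itself and what it does to the LPS response cannot be told apart. Each replicate is a separate mouse, and the same mouse recurs in all 15 tissues.

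Prostaglandins and leukotrienes are short-lived signalling lipids made from arachidonic acid. Cytosolic phospholipase A2 releases the acid from membranes, the cyclooxygenases turn it into prostaglandin H2, and terminal synthases turn that into prostaglandin E2, prostacyclin or prostaglandin D2, which act on receptors of neighbouring cells until 15-hydroxyprostaglandin dehydrogenase inactivates them. In myeloid cells 5-lipoxygenase and its activating protein take the same acid toward leukotrienes, which attract and activate leukocytes, while prostaglandin E2 drives fever, pain and vasodilation during infection.

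Levels are given as the deposited signal, a count scaled by the authors for library size. Recovered counts per library ranged from 311128 to 2573806 (median 1215134), and a single count was worth between 0.322 and 3.60 units, which makes low levels imprecise. Each bulk library mixes cell types, and a change in the number of cells of a type cannot be told apart from a change in RNA per cell. Tnf RNA, the transcript of the deleted gene, was still counted in TNFKO LPS mice: its mean lay above that of the LPS mice in 15 of 15 tissues, for example 96.8 ± 8.19 against 20.4 ± 6.95 in lung (SD, n = 4 each). The removed part of the gene is not given in the labels, so a 3′ tag does not check the genotype. Among PBS mice the summed markers of hepatocytes, cardiomyocytes, kidney tubule, lung epithelium, keratinocytes, white and brown adipocytes, thymocytes, neurons and both gut epithelia were highest in the matching tissue. Pancreatic enzymes were also found, with sums of 94.6 to 1767 in PBS small intestine and 40.8 to 426 in LPS spleen.

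**Figure D1:**
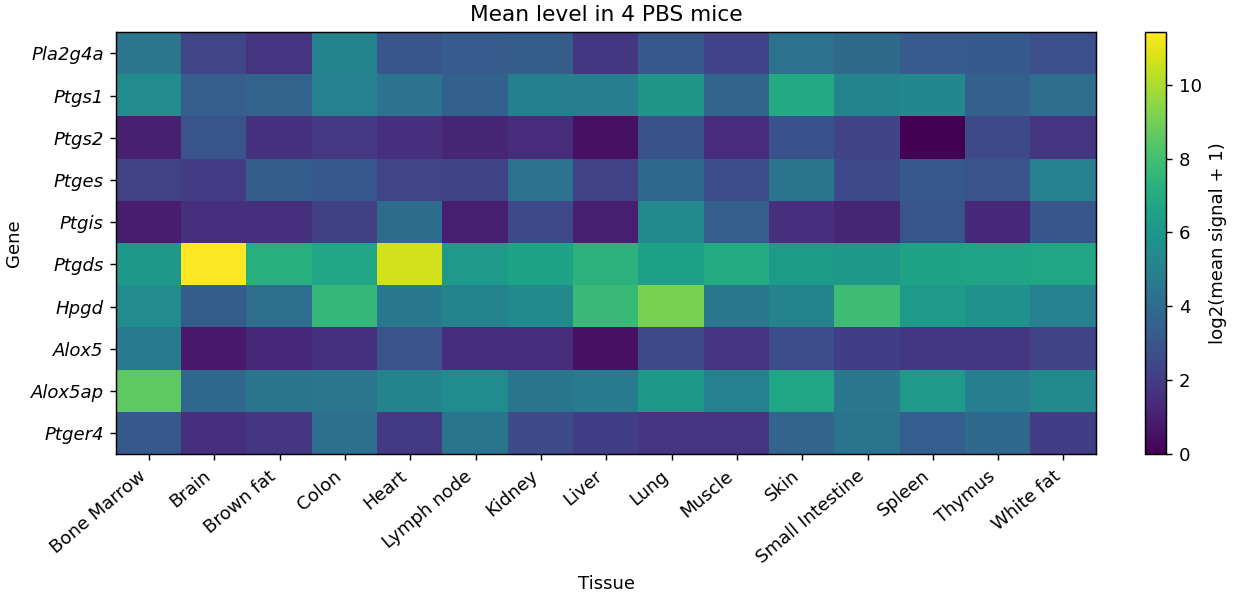
Mean level of each of the 10 genes (rows) in each of 15 tissues (columns) of the 4 PBS mice, as log2(mean signal + 1). Ptgds stands out in brain (2732) and heart (1579), Hpgd in lung (556) and Alox5ap in bone marrow (383), while Ptgs2 lay below 7 in every tissue.

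In unchallenged mice most of the genes had a favoured tissue. Ptgds, the lipocalin-type prostaglandin D2 synthase known from the brain linings and heart, reached 2732 ± 157 in brain and 1579 ± 321 in heart, and its ranges in these tissues did not overlap each other or those of the remaining 13. Those 13 tissues lay between 66.5 and 160 (2.44% to 5.86% of the brain mean), where neighbours in the order overlapped. In the same 13 tissues the median of 15 neuron and oligodendrocyte markers was 1.58% to 3.86% of its brain level, and in heart it was 2.41% while Ptgds was at 57.8%. Whether the low Ptgds level outside brain and heart comes from those tissues was not tested.

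Hpgd, the dehydrogenase that inactivates prostaglandins, was highest in lung (556 ± 7.35), with no overlap with small intestine (234 ± 25.0), liver (208 ± 26.2) and colon (192 ± 9.99), which overlapped with each other in that order. Brain was lowest at 9.21 ± 1.19. Alox5ap, the activating protein of 5-lipoxygenase, led in bone marrow (383 ± 39.1), followed without overlap by skin (104 ± 26.6). Alox5, 5-lipoxygenase itself, also led in bone marrow (26.1 ± 3.04), and its next tissue was heart (6.46 ± 2.72). These 2 genes, which act as a pair in leukotriene synthesis, shared their favoured tissue. Their order by mean differed after it, but for Alox5 each tissue after bone marrow overlapped the next. Alox5 in heart ranged from 3.83 to 10.2 and in skin from 4.77 to 7.05.

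Ptgis, prostacyclin synthase, was highest in lung (42.0 ± 4.06), with heart next (15.6 ± 4.16) and no overlap between them. Ptgs1, the constitutive cyclooxygenase, led in skin (126 ± 10.3), then lung (65.0 ± 12.1) and bone marrow (44.8 ± 4.70), with no overlap among these 3. Pla2g4a, cytosolic phospholipase A2, led in colon (33.1 ± 4.65), then bone marrow (22.3 ± 1.88), again without overlap. For the other 3 genes the leading tissues overlapped. Ptger4, the EP4 receptor for prostaglandin E2, ran at 20.4 ± 2.94 in lymph node, 19.7 ± 3.31 in small intestine and 17.2 ± 2.56 in colon. Ptges, the inducible microsomal prostaglandin E synthase, ran at 30.3 ± 16.3 in white fat and 20.0 ± 2.74 in skin. Ptgs2, the inducible cyclooxygenase, was low everywhere, from 0 counts in 4 spleen libraries to 6.75 ± 2.14 in brain, with overlap between all neighbours in the order.

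LPS changed the genes in a patchwork. Over 10 genes and 15 tissues, 150 tests were made with limma across all genes of a tissue, and all 150 passed the filter on low values. At an adjusted p below 0.05, 19 tests were higher after LPS and 17 were lower, that is 36 of 150. Among all genes and tissues 9.47% of tests were higher and 10.4% lower, 19.8% in either direction, so the number of calls among these genes was near the background. By tissue the share of all genes called ran from 4.35% in brain to 38.0% in kidney. The median log2 change was 0.04 over the 150 tests against -0.02 over all genes. In 31 of the 36 calls the 4 LPS and the 4 PBS libraries did not overlap. Each of the 10 genes was called in at least 1 tissue, and 14 of 15 tissues held a call, muscle being without one.

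**Figure D2:**
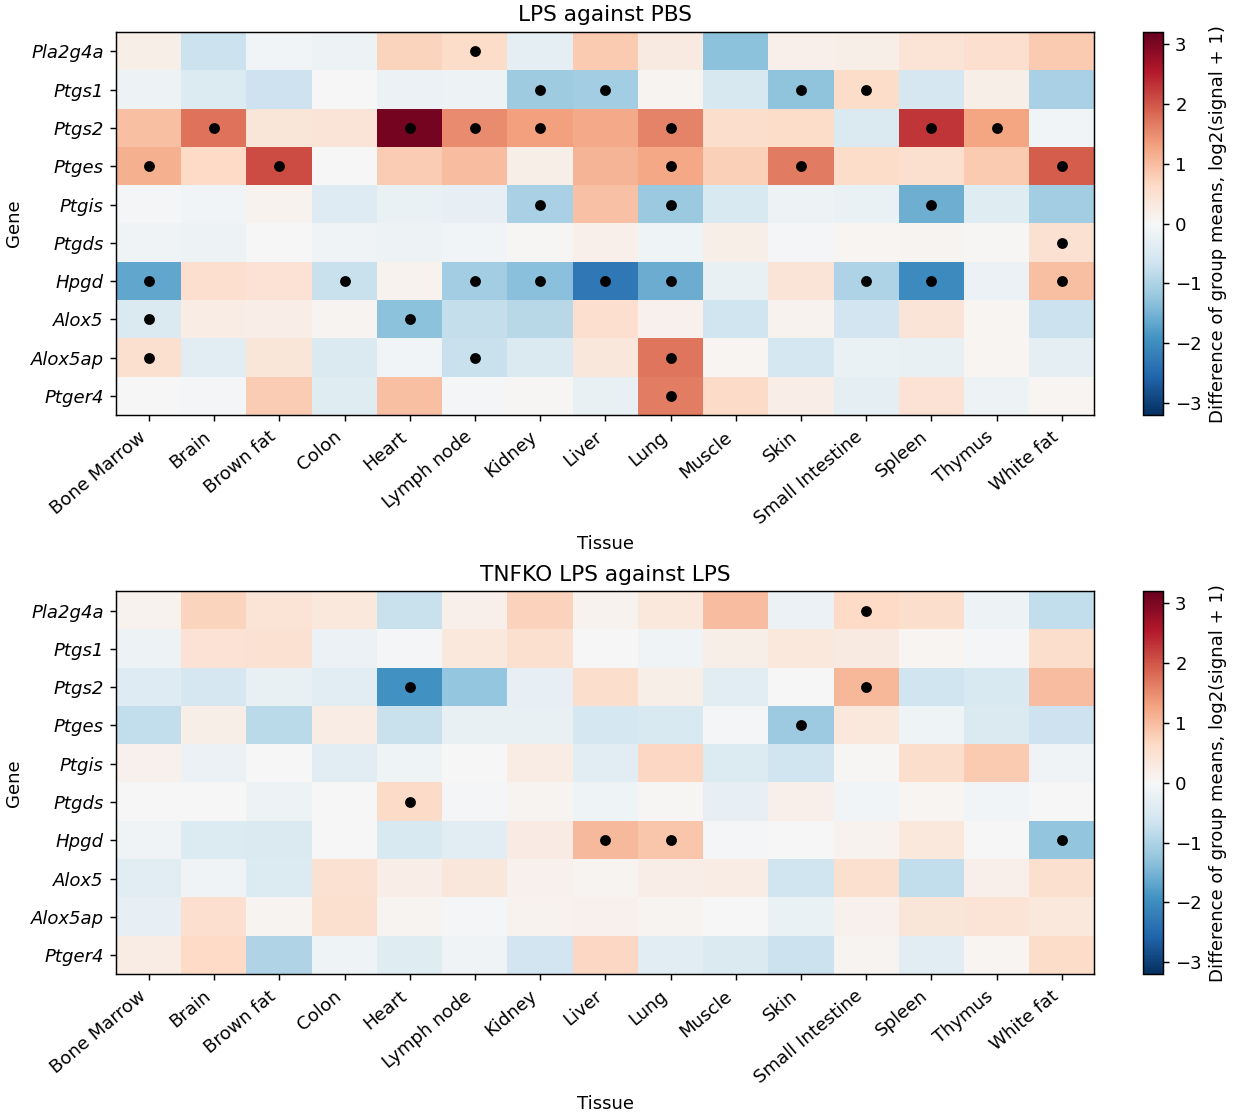
Differences of group means on the log2(signal + 1) scale for 10 genes (rows) and 15 tissues (columns), for LPS against PBS (top) and TNFKO LPS against LPS (bottom), with a dot where the adjusted p was below 0.05. Ptgs2 and Ptges are mostly red and Hpgd mostly blue in the upper panel, which holds 36 dots against 8 in the lower one.

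Within a gene the calls mostly ran 1 way. Ptgs2 was called higher in 7 tissues and lower in none, and Ptges higher in 5 and lower in none. Hpgd was called lower in 8 and higher in 1. Ptgis was lower in 3 and Ptgs1 lower in 3 and higher in 1, while Alox5 was lower in 2 and Alox5ap higher in 2 and lower in 1. Ptger4, Pla2g4a and Ptgds were each called higher in a single tissue. Of the 36 calls, 28 held under every alternative tried and without any single mouse, and the other 8 are named where they come up.

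After LPS Pla2g4a was called only in the lymph node, where the PBS libraries read 7.49, 9.82, 11.1 and 8.05 and the LPS libraries 17.3, 12.9, 16.1 and 10.96. The lowest LPS library lay just under the highest PBS library. The log2 change was 0.59 (SE 0.19, adjusted p = 0.026), and it was not called without mouse 1 (adjusted p = 0.071), mouse 4 (0.071), mouse 5 (0.087) or mouse 7 (0.079). Pla2g4a in muscle fell to 3 counts in all over the 4 LPS libraries (signals 1.72, 0, 2.47 and 0) from 12 counts over the PBS libraries, which was not called in muscle itself.

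Ptgs2 rose most in heart. The 4 PBS hearts read 1.79, 1.84, 0.766 and 3.15, the 4 LPS hearts 35.0, 14.8, 20.3 and 22.7. Every LPS heart lay more than 4 times above the highest PBS heart. The log2 change was 3.07 (SE 0.36, adjusted p = 1.3e-07) on 9 against 93 counts. In brain the PBS values were 6.81, 9.67, 5.84 and 4.67 and the LPS values 21.0, 20.3, 26.3 and 30.8, again apart, with a change of 1.74 (SE 0.27, adjusted p = 0.00015). Ptgs2 was the 1 of the 10 genes called in brain, where 4.35% of all genes were called.

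In lung Ptgs2 went from 4.18, 5.68, 6.43 and 8.48 to 20.3, 16.1, 19.0 and 26.2, a log2 change of 1.59 (SE 0.25, adjusted p = 1.4e-05). In thymus it went from 5.15, 2.07, 6.21 and 5.40 to 12.2, 12.5, 11.3 and 12.1, a change of 1.26 (SE 0.33, adjusted p = 0.0037). Neither pair of groups overlapped. In the lymph node it went from 1.15, 2.23, 0.742 and 1.27 to 2.88, 6.43, 7.82 and 5.98, also apart, a change of 1.503 (SE 0.36, adjusted p = 0.0042). No Ptgs2 count was found in any PBS spleen, and the LPS spleens held 6, 1, 5 and 2 counts (signals 5.33, 1.22, 7.85 and 3.61). Against a floor of 3 counts over the PBS group, the LPS mean of 4.50 was at least 4.74-fold higher (adjusted p = 0.0018). In kidney the groups overlapped (1.396, 0.548, 1.27 and 3.56 against 4.67, 1.92, 5.87 and 12.0), and the change of 1.32 (SE 0.40, adjusted p = 0.0099) was not called without mouse 8 (adjusted p = 0.062).

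**Figure D3:**
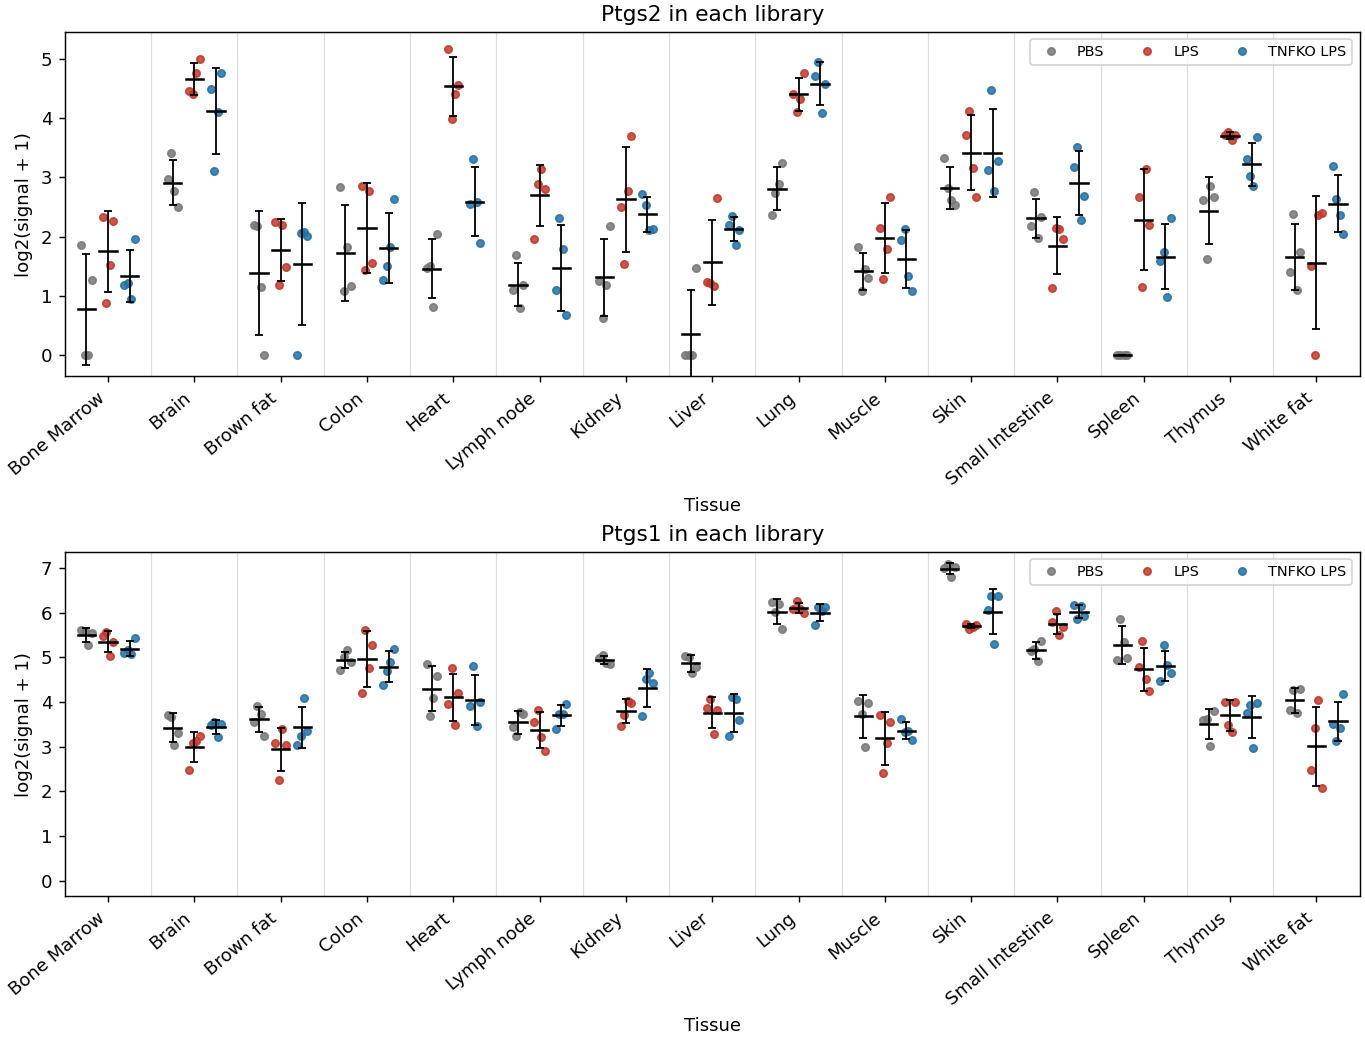
Signal of Ptgs2 (top) and Ptgs1 (bottom) in each library on a log2(signal + 1) axis, by tissue and group, with the mean and SD of 4 mice as black bars. Ptgs2 rose in heart, brain and lung after LPS and was lower in TNFKO LPS than in LPS hearts, while Ptgs1 fell in skin, kidney and liver.

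Ptgs1, the constitutive isoform, fell or rose by tissue. In skin, its leading tissue, the PBS libraries read 128, 136, 111 and 129 and the LPS libraries 52.8, 49.1, 50.2 and 51.8, a log2 change of -1.29 (SE 0.18, adjusted p = 2.1e-05). The LPS group lay far below and was tightly grouped. In kidney Ptgs1 fell from 30.7, 32.3, 28.6 and 27.8 to 10.0, 12.2, 15.4 and 14.8 (change -1.15, SE 0.20, adjusted p = 5.4e-05). In liver it fell from 32.0, 31.2, 24.2 and 26.5 to 13.6, 15.9, 8.75 and 13.2 (change -1.11, SE 0.29, adjusted p = 0.0044). The small intestine went the other way, from 34.5, 35.7, 29.3 and 40.3 to 54.2, 64.4, 44.2 and 50.6 (change 0.59, SE 0.14, adjusted p = 0.0035). None of these 4 pairs of groups overlapped.

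The cell type markers of these tissues moved too. The 7 keratinocyte markers summed to 13870 to 18164 in PBS skin and 7160.5 to 8416 in LPS skin. The 8 kidney tubule markers summed to 11753 to 13495 and 5227 to 7772, and 10 hepatocyte markers in liver to 234120 to 263234 and 98404 to 137644. The 7 intestinal epithelium markers summed to 11041 to 14968 and 6776 to 10958, opposite to Ptgs1 in that tissue. Resident macrophage markers were called lower in liver (8 of 12), skin (2 of 11) and kidney (2 of 11, with 1 higher). In small intestine 5 of 11 resident macrophage markers were called higher and 1 lower. Skin fibroblast markers were also called lower (6 of 11, with 1 higher). The part of these markers in the Ptgs1 changes was not tested.

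The starts of the 2 cyclooxygenase genes and of Ptges are shown because these 3 enzymes convert arachidonic acid to prostaglandin E2 and differed in their response. The windows come from the RefSeq promoter table of build GRCm38.p6, which held 8 of the 10 genes (not Ptgis and Alox5ap), with 250 bases before and 50 after each start, read 5′ to 3′ on the strand of the gene. On both strands, 4 motifs were searched. Of its 32851 promoters, 8.46% held the NF-kB consensus, 20.8% the CRE motif TGACG, 72.3% the E-box CANNTG and 13.6% the TATA box TATAAA. Capitals mark matches, and positions count from the start site as 1, with no 0.
Ptgs2, E-box, 147 bases before the start, chr1:150099874-150099899, plus strand: ctcttggcacCACCTGgggcagccaa
Ptgs2, E-box, 103 bases before the start, chr1:150099918-150099943, plus strand: cttcgtctctCATTTGcgtgggtaaa
Ptgs2, CRE motif (on the other strand) overlapping an E-box, positions 14 to 22, chr1:150100034-150100062, plus strand: gtcaccactaCGTCACGTGgagtccgctt
Ptgs1, E-box, 208 bases before the start, chr2:36230208-36230233, plus strand: cctcttccacCATTTGttctgcctac
Ptgs1, E-box, 139 bases before the start, chr2:36230277-36230302, plus strand: tgctatatccCAAATGgatgcatttc
Ptgs1, E-box, position 9, chr2:36230424-36230449, plus strand: tcagaggtgaCAACTGgagggaggag
Ptges, E-box, 121 bases before the start, chr2:30903403-30903428, minus strand: cccacccggaCACTTGgagcagaagt
Ptgs2 was the only 1 of the 8 genes with a CRE motif in this window. The NF-kB consensus was found in 1 of the 8, Ptgds, 22 bases before its start. These are matches of letters, not binding data.

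Ptges rose in both fat depots, skin, lung and bone marrow. In white fat the PBS libraries read 50.8, 34.6, 22.8 and 12.8 and the LPS libraries 113, 83.0, 138 and 100.4, a log2 change of 1.95 (SE 0.26, adjusted p = 8.2e-06). In brown fat they read 3.60, 20.0, 2.45 and 11.2 and 52.4, 26.6, 32.1 and 25.3, a change of 2.08 (SE 0.43, adjusted p = 0.0012). The PBS values spread widely in both depots, and still no PBS library reached an LPS library. In brown fat 8 of 8 skeletal muscle markers were called higher after LPS, their sum going from 1197 to 3189 in PBS to 2156 to 9542 in LPS libraries, and the part of this in the Ptges change was not tested.

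In skin Ptges went from 19.0, 17.4, 19.9 and 23.8 to 55.3, 35.3, 93.0 and 101 (change 1.67, SE 0.27, adjusted p = 0.0001). In lung it went from 12.5, 16.4, 12.9 and 12.1 to 39.9, 23.4, 37.4 and 34.6 (change 1.25, SE 0.21, adjusted p = 5.1e-05). In bone marrow it went from 2.63, 3.83, 3.202 and 4.68 to 10.9, 5.97, 11.8 and 8.09 (change 1.13, SE 0.26, adjusted p = 0.0019). All 3 pairs of groups were apart, and the LPS mice spread most in skin. Over all 15 tissues the Ptges change ran from 0.00 in colon to 2.08, with 15 of 15 estimates above 0.

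**Figure D4:**
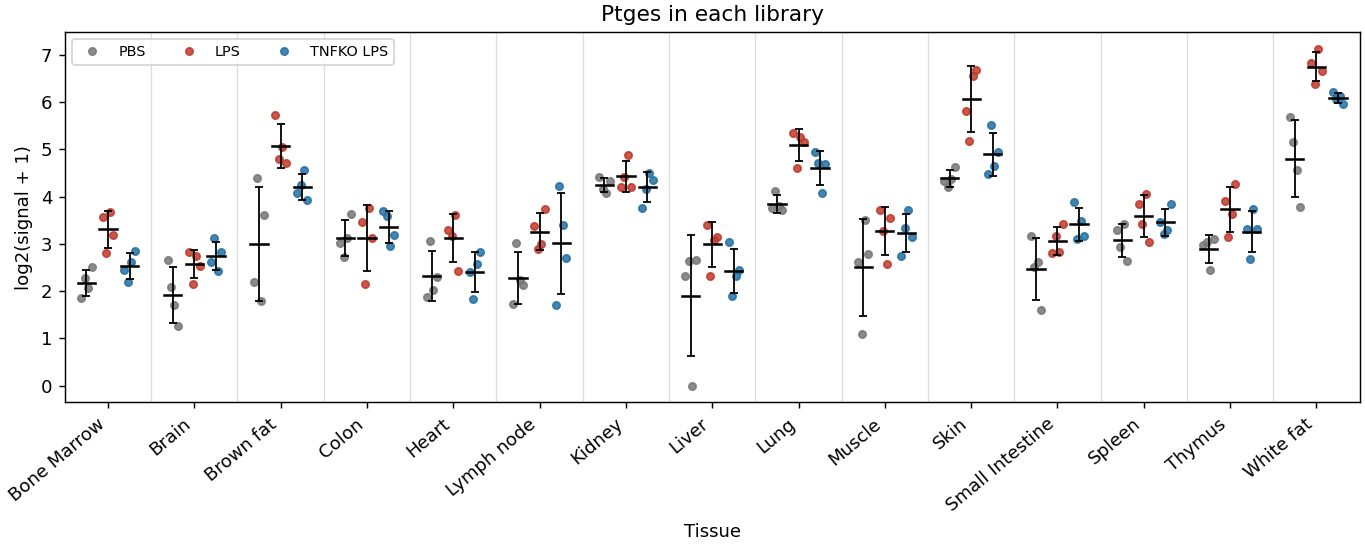
Signal of Ptges in each library on a log2(signal + 1) axis, by tissue and group, with the mean and SD of 4 mice as black bars. In white fat, brown fat, skin, lung and bone marrow the LPS libraries lie above the PBS libraries, and the TNFKO LPS mice lie between them in mean.

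The prostacyclin branch went down where it was called. Ptgis in lung fell from 39.2, 37.9, 45.0 and 46.0 to 17.6, 8.79, 20.3 and 32.1, without overlap, a log2 change of -1.18 (SE 0.24, adjusted p = 0.00041). In the same lungs 8 of 12 endothelial markers were called lower and 1 higher (sums of 4070 to 4272 against 3711 to 3976). Of the smooth muscle markers 6 of 7 were called lower (803 to 869.7 against 323 to 360.2). The part of these markers in the Ptgis change was not tested. In kidney Ptgis read 4.89, 4.93, 4.45 and 4.99 against 1.33, 1.28, 2.20 and 2.77, a change of -1.04 (SE 0.36, adjusted p = 0.026), which was not called without mouse 1, 2, 4, 5 or 6 (adjusted p = 0.052 to 0.068). In spleen it read 2.96, 11.7, 8.59 and 4.21 against 1.78, 3.67, 1.57 and 0, with overlap, and 6 of 7 smooth muscle markers were called lower there (448 to 544 against 215 to 337), whose part was not tested. That change of -1.56 (SE 0.53, adjusted p = 0.04) rested on 21 and 6 counts and was not called without mouse 2, 3, 5, 7 or 8 (0.06 to 0.17), nor by edgeR, with a pseudocount of 0.25 or with the 2 groups fitted alone.

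Of the 2 prostaglandin D2 synthases, Ptgds kept within a log2 change of -0.16 to 0.49 in the 15 tissues, and Hpgds, the haematopoietic enzyme and no member of the 10, was called lower in bone marrow (-1.24), skin (-1.13) and lymph node (-0.82). The only call of Ptgds was in white fat, from 83.6, 98.8, 116 and 115 to 122, 151, 171 and 138, apart. That change of 0.49 (SE 0.14, adjusted p = 0.02) was not called without mouse 1 (0.079), mouse 2 (0.054) or mouse 7 (0.091). In brain, where Ptgds is most abundant, it read 2849.6, 2874, 2656 and 2548 in PBS and 2469.8, 2681, 2229 and 2474 in LPS mice, with overlap.

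Hpgd, the inactivating enzyme, gave the widest pattern. In liver it fell from 186, 244, 209.9 and 192 to 38.1, 45.1, 42.5 and 40.9, a log2 change of -2.29 (SE 0.15, adjusted p = 6.8e-13). In lung, its leading tissue, it fell from 547, 556, 565 and 556 to 192, 461, 101 and 129, a change of -1.59 (SE 0.25, adjusted p = 1.4e-05). The PBS lungs were closely grouped while LPS mouse 6 stood more than 2 times above the other 3. Among the LPS mice, mouse 6 was also nearest the PBS mice for Hpgd in small intestine and colon, but furthest in kidney. The same held for Ptges in lung, skin, bone marrow and white fat, where mouse 6 was the lowest LPS mouse. In spleen it fell from 59.1, 65.3, 75.2 and 75.7 to 16.0, 15.9, 9.42 and 27.0, a change of -2.03 (SE 0.24, adjusted p = 7.8e-08).

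In bone marrow Hpgd fell from 37.4, 43.8, 55.0 and 40.7 to 14.1, 14.1, 13.2 and 10.9, a log2 change of -1.68 (SE 0.20, adjusted p = 3.9e-07). In kidney it fell from 41.2, 49.9, 52.7 and 29.2 to 16.0, 13.5, 18.3 and 16.6, a change of -1.34 (SE 0.18, adjusted p = 1.7e-06). In the lymph node it fell from 28.8, 29.5, 41.2 and 35.2 to 15.6, 17.8, 12.6 and 13.4, a change of -1.12 (SE 0.17, adjusted p = 7.3e-05). The gut followed with smaller changes: -0.99 in small intestine (SE 0.24, adjusted p = 0.004; 203, 231, 264 and 238 against 152, 179, 58.5 and 118) and -0.71 in colon (SE 0.15, adjusted p = 0.00087; 201, 198, 192 and 179 against 121, 156, 79.5 and 124). In none of these 8 tissues did the groups overlap.

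Tissue markers moved beside Hpgd in bone marrow and lymph node. In bone marrow 6 of 7 lung epithelium markers were called lower after LPS (sum 968 to 1919 in PBS, 669 to 786 in LPS), as were 6 of 6 erythroid markers (149324 to 165109 against 109786 to 126129). In lymph node 8 of 8 kidney tubule markers were called lower (309 to 958 against 77.8 to 93.4). So were 7 of 10 T cell markers, with 1 higher (1328 to 1612 against 1094 to 1209), and 6 of 8 B cell markers (1699 to 1979 against 1150 to 1334). The part of these in the Hpgd changes was not tested.

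White fat went the other way, from 18.0, 26.8, 34.2 and 46.7 to 58.1, 34.5, 59.9 and 103 for Hpgd, with overlap, a log2 change of 0.97 (SE 0.28, adjusted p = 0.019). It was not called without mouse 1 (0.081), mouse 2 (0.053) or mouse 8 (0.11). Markers moved beside Hpgd in other tissues too. In lung 5 of 7 epithelial markers were called lower and 1 higher (sum 86206 to 93270 in PBS, 53244 to 67136 in LPS). In liver 10 of 10 hepatocyte markers were called lower, and in kidney 7 of 8 tubule markers. In spleen 8 of 11 resident macrophage markers were called lower (1114 to 1329 against 537 to 851, with Vsig4 at 0 after LPS). Spleen T cell (8 of 10), B cell (6 of 8) and smooth muscle (6 of 7) markers were also called lower. In the same spleens 7 of 7 pancreatic acinar and 9 of 14 neutrophil markers were called higher. In small intestine 5 of 7 epithelial markers were called lower and 1 higher, and in colon 3 of 7 lower and 1 higher. Colon smooth muscle (7 of 7) and fibroblast markers (6 of 11, with 1 higher) were also called lower. In white fat, where Hpgd rose, 8 of 11 fibroblast markers (7439 to 8454 against 3077 to 5503) and 7 of 11 resident macrophage markers (519.7 to 639 against 257 to 392.1) were called lower. Their part in the Hpgd changes was not tested.

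**Figure D5:**
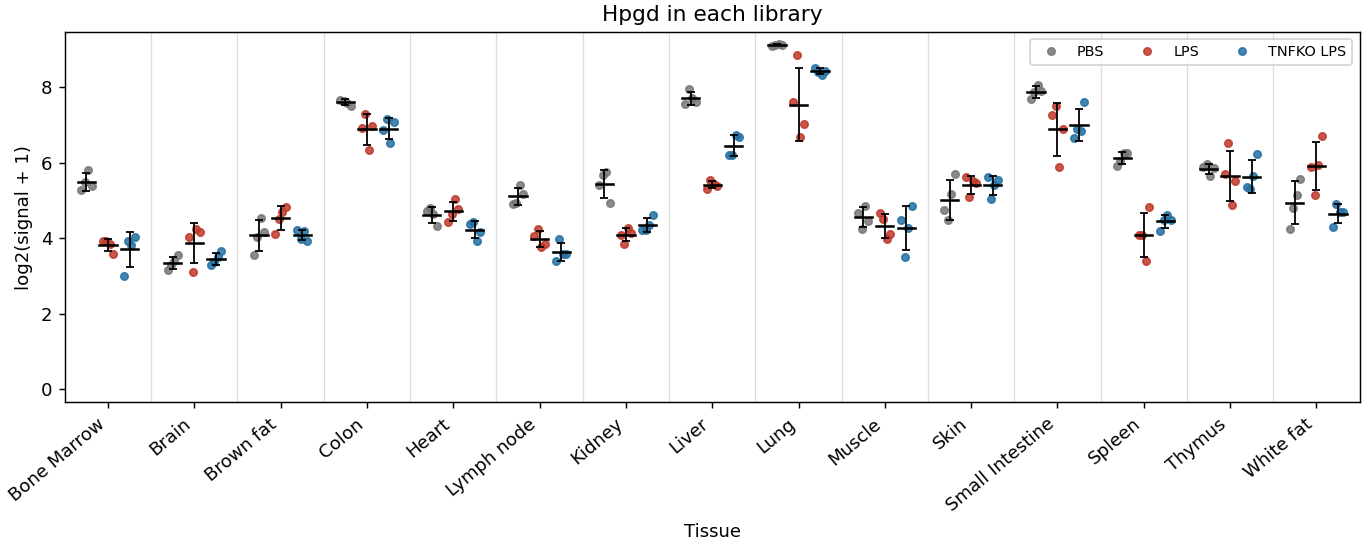
Signal of Hpgd in each library on a log2(signal + 1) axis, by tissue and group, with the mean and SD of 4 mice as black bars. LPS libraries lie below PBS libraries in 8 tissues, white fat goes the other way, and in liver the TNFKO LPS mice lie between the other groups.

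The leukotriene pair did not move together. Alox5ap rose in lung from 56.8, 77.7, 61.1 and 70.2 to 215, 208, 213 and 231, a log2 change of 1.70 (SE 0.16, adjusted p = 3.6e-09), with a wide gap between the groups. In bone marrow it rose from 369.6, 354, 368 and 441 to 488, 572, 566 and 568 (change 0.52, SE 0.11, adjusted p = 0.00064). In the lymph node it fell from 35.1, 41.5, 54.9 and 53.4 to 25.5, 34.0, 23.5 and 27.9 (change -0.71, SE 0.16, adjusted p = 0.0028). None of these groups overlapped. The kidney tubule, T cell and B cell markers given above fell in the same lymph nodes, and their part in the Alox5ap change was not tested.

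Alox5 was lower in bone marrow after LPS, from 28.9, 23.0, 24.0 and 28.5 to 19.7, 22.6, 16.1 and 17.1, a log2 change of -0.45 (SE 0.16, adjusted p = 0.045) with no overlap. In heart it read 6.28, 5.51, 3.83 and 10.2 against 2.92, 2.28, 0 and 4.36, with overlap, a change of -1.31 (SE 0.46, adjusted p = 0.042). Both calls sat at the threshold: the first was not called without mouse 1, 3, 4, 5, 7 or 8 (0.056 to 0.13), nor without the filter or after median-of-ratios rescaling, and the second not without mouse 1 (0.084), 2 (0.072), 4 (0.15) or 7 (0.21), nor by edgeR or with a pseudocount of 0.25. In lung Alox5 was not called (change 0.14, SE 0.32, adjusted p = 0.81).

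Ptger4 was called in lung alone, from 3.34, 3.79, 1.29 and 1.21 to 9.15, 5.86, 10.8 and 10.98, without overlap, a log2 change of 1.64 (SE 0.35, adjusted p = 0.00066) on 13 against 48 counts. Its gene model at chr15:5206661-5244187 on the minus strand overlaps Ttc33 on the plus strand, and whether counting used the strand is not stated. Ttc33 in lung was at 23.1 ± 3.61 in PBS and 20.0 ± 3.85 in LPS mice (change -0.21, adjusted p = 0.52). In the same lungs 14 of 14 neutrophil markers were called higher, their sum going from 471 to 529.5 in PBS to 4774 to 5266 in LPS libraries. In LPS bone marrow 8 of 14 were called lower and 1 higher (15455 to 16639 against 11078 to 13671), while Alox5ap was higher there. Of the monocyte markers 5 of 8 were called higher and 1 lower in bone marrow (median log2 change 0.93). In lung 4 of 8 monocyte markers were called higher and 2 lower. The part of these cells in the Alox5ap and Ptger4 changes was not tested.

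Whether a change differed between tissues was tested over all 15 in a single fit of 180 libraries. The change after LPS differed among tissues for 6 of the 10 genes, Hpgd (adjusted p = 6.7e-23), Alox5ap (3.8e-10), Ptgs2 (3.2e-06), Ptgs1 (6e-06), Pla2g4a (0.003) and Ptges (0.0054), where 65.3% of all genes did. Against the mean of the other 14 tissues, 24 of 150 pairs of gene and tissue differed (10.9% over all genes), and 11 of these 24 held without any single mouse. Of the 11, 7 were Hpgd, whose change was lower than elsewhere in liver (-1.76, SE 0.26), spleen (-1.48) and bone marrow (-1.10). It was higher than elsewhere in white fat (1.74), brain (1.27), brown fat (1.19) and skin (1.12). Hpgd itself was not called between LPS and PBS in brain, brown fat or skin. The other 4 were Ptgs2 in heart (2.12, SE 0.44, adjusted p = 0.00031), Alox5ap in lung (1.84, SE 0.23, adjusted p = 1.3e-10), Ptgs1 in small intestine (1.09, SE 0.27, adjusted p = 0.002) and Pla2g4a in muscle (-1.56, SE 0.37, adjusted p = 0.0017), the last on the 3 counts given above.

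TNFKO LPS mice were compared with LPS mice to ask which of these levels differ in mice without TNF. This comparison shares its LPS mice with the one above. Of 150 tests 5 were higher and 3 lower in TNFKO LPS, against 3.24% and 2.32% of all tests, 5.56% in either direction, so again near the background. Rescaling by median of ratios gave 2 higher and 3 lower. Only 3 of the 8 calls held under every alternative and without any single mouse: Ptgs2 and Ptgds in heart and Hpgd in liver.

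Ptgs2 in TNFKO LPS hearts read 4.90, 8.97, 5.00 and 2.73, below every LPS heart (14.8 to 35.0), a log2 difference of -1.94 (SE 0.36, adjusted p = 0.00075). Set against PBS hearts, which share no mouse with them, the difference was 1.12 (SE 0.36, adjusted p = 0.032) with overlap, and it was not called without mouse 1, 2, 3, 9, 10 or 11 (0.058 to 0.14), nor with the 2 groups alone or by edgeR. Ptgds in the same hearts read 1884, 1914, 2415 and 2389.6 against 1807, 1347, 1095 and 1422 in LPS hearts, apart, a difference of 0.61 (SE 0.12, adjusted p = 0.0019). Neutrophil markers summed to 1479 to 1722 in LPS and 1066 to 1159 in TNFKO LPS hearts, and cardiomyocyte markers to 23501 to 25716 and 19319 to 22489. The typical neutrophil marker did not follow its sum. Against PBS each group had 2 of 13 neutrophil markers called higher and 0 lower (median log2 change 0.12 in LPS, 0.19 in TNFKO LPS). Cardiomyocyte markers were called lower in 6 of 8 in LPS and 7 of 8 in TNFKO LPS hearts (medians -0.51 and -0.56). Fibroblast markers were called lower in 8 of 11 and 3 of 11, with 1 higher in each (-0.73 and -0.19). Of 12 resident macrophage markers 4 were lower and 0 higher in LPS hearts (median -0.32). In TNFKO LPS hearts 1 was lower and 2 higher (median 0.23). The part of these markers in either difference was not tested.

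Hpgd in TNFKO LPS livers read 73.1, 72.0, 105 and 102, above every LPS liver (38.1 to 45.1), a log2 difference of 1.04 (SE 0.15, adjusted p = 1.7e-05), and below every PBS liver (-1.25, SE 0.15, adjusted p = 2.4e-07). The hepatocyte marker sums of the 2 LPS groups overlapped, at 98404 to 137644 in LPS and 108178 to 140402 in TNFKO LPS livers. Against PBS 10 of 10 hepatocyte markers were called lower in each, with a median log2 change of -1.66 in LPS and -1.33 in TNFKO LPS livers. The part of these markers in the Hpgd difference was not tested. In lung TNFKO LPS mice read 362, 339, 319 and 345 for Hpgd, above 3 LPS lungs and below mouse 6, a difference of 0.88 (SE 0.25, adjusted p = 0.033). Without mouse 6 the adjusted p was 5.2e-09, and without any 1 of mice 5, 7, 8, 9, 10, 11 or 12 it was 0.062 to 0.14. The call was also lost after rescaling, with the 2 groups alone and by edgeR. In white fat TNFKO LPS mice read 18.6, 28.6, 24.9 and 25.0, below every LPS library, a difference of -1.27 (SE 0.28, adjusted p = 0.012) that was not called without mouse 8 (0.078). T cell markers in white fat summed to 98.4 to 127 in PBS, 109 to 133 in LPS and 111 to 629 in TNFKO LPS libraries, and their part in this was not tested.

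The remaining calls were near the threshold. Ptges in TNFKO LPS skin read 21.2, 44.8, 24.0 and 29.8, overlapping with LPS skin, a log2 difference of -1.16 (SE 0.27, adjusted p = 0.022) that was not called without mouse 7 (0.086), 8 (0.087), 9 (0.08) or 12 (0.056). In the other 4 tissues where LPS raised Ptges the differences were also below 0 and none was called: -0.87 in brown fat, -0.78 in bone marrow, -0.66 in white fat and -0.49 in lung, with adjusted p of 0.076 to 0.37. In small intestine Ptgs2 read 8.03, 10.4, 3.85 and 5.45 against 1.20, 3.45, 3.40 and 2.88 (difference 1.06, SE 0.32, adjusted p = 0.048), not called without mouse 5, 7, 8, 9, 10 or 12 (0.052 to 0.18). Pla2g4a there read 22.4, 30.2, 30.4 and 22.8 against 18.1, 13.2, 19.0 and 16.1 (difference 0.64, SE 0.19, adjusted p = 0.042), not called without mouse 5, 6, 8, 9, 10, 11 or 12 (0.051 to 0.14). Neither group pair in small intestine overlapped, and both calls were lost after median-of-ratios rescaling, that of Ptgs2 also with a pseudocount of 0.25 or the 2 groups alone.

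Where LPS alone had raised Alox5ap and Ptgs2 in lung, TNFKO LPS mice stood near the LPS mice. Alox5ap read 140.1, 278, 267 and 271, a log2 difference of 0.09 with an interval of 2 SE from -0.23 to 0.41, and Ptgs2 read 25.1, 29.7, 16.0 and 22.9, a difference of 0.18 with an interval from -0.32 to 0.67. For Ptgs2 in brain (21.5, 7.68, 16.2 and 26.1) the difference was -0.54 with an interval from -1.08 to 0.01. Ptgs1, Ptgis, Ptger4 and Alox5 were not called in any tissue between genotypes, with the lowest adjusted p at 0.074 for Ptgs1 in kidney (0.52), 0.11 for Ptgis in lung (0.65), 0.20 for Ptger4 in kidney (-0.61) and 0.21 for Alox5 in bone marrow (-0.35). A missing call does not show that these groups are alike. The difference between genotypes varied among tissues for Hpgd (adjusted p = 4.2e-06), Ptgs2 (0.0015) and Ptgds (0.022), 3 of 10 genes where 25.6% of all genes did.

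Against the other 14 tissues 5 pairs differed (2.12% over all genes). Hpgd in liver (1.15, SE 0.26) and in white fat (-1.32, SE 0.26) held without any single mouse. Ptgs2 in heart (-1.82, SE 0.44, adjusted p = 0.015) was not called without mouse 5 (0.13) or mouse 12 (0.18), Ptgds in heart (0.65, SE 0.13, adjusted p = 0.0016) not without mouse 7 (0.087), and Hpgd in lung (0.98, SE 0.26, adjusted p = 0.043) not without mouse 2, 3, 5, 7, 8, 9, 10, 11 or 12 (0.055 to 0.3).

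TNFKO LPS mice were last set against PBS mice, where treatment and genotype differ together. Of 150 tests 16 were higher and 12 lower, against 6.71% and 6.13% of all tests (12.8% in either direction), and 16 of these 28 calls held under every alternative and without any single mouse. Hpgd was lower in 7 tissues, the 8 of the LPS comparison without lung, where the difference was -0.70 (SE 0.25, adjusted p = 0.055) with no overlap, and in small intestine it was not called without mouse 9 (0.061). Ptgs1 was again lower in skin (-0.96), liver (-1.11) and kidney (-0.63) and higher in small intestine (0.87), the kidney call being lost without mouse 1, 2, 3, 9 or 12 (0.05 to 0.15).

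Alox5 in bone marrow was lower in TNFKO LPS than in PBS mice (-0.80), and Alox5ap was higher in lung (1.79) and lower in lymph node (-0.75). Pla2g4a was higher in lymph node (0.76) and small intestine (0.82), Ptges in white fat (1.29) and Ptgs2 in lung (1.77), and these 7 calls held throughout. Ptger4 in lung (1.27) and Ptges in lung (0.76) were not called without mouse 9 (0.055 and 0.061). Ptgds in heart (0.46) was not called without mouse 1 (0.073) or 12 (0.051), and Ptgds in white fat (0.50) not without mouse 1, 2, 11 or 12 (0.065 to 0.11).

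The other calls against PBS were Alox5ap in thymus (0.50), lost without mouse 1, 2, 3, 4, 9, 11 or 12 (0.051 to 0.17), and Ptges in small intestine (0.94), lost without mouse 2, 3, 4, 9 or 11 (0.052 to 0.14) and by edgeR. Ptgs2 in brain (1.20) was lost without mouse 3, 4 or 12 (0.054 to 0.065) and with the 2 groups alone. Ptgs2 in liver rested on 1 count in the PBS group and was lost without mouse 1, 2, 3, 9, 10 or 12 (0.063 to 0.076) and by edgeR. In spleen, with no PBS count, the TNFKO LPS mean of Ptgs2 was at least 2.46-fold higher, a call lost without mouse 1, 2, 3, 4, 9, 10 or 12 (0.051 to 0.11). Ptgis was not called in any tissue in this comparison.

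Other genes of the pathway, 54 of 67 on 8 lists by role, gave 83 higher and 117 lower calls after LPS in 802 tests (10.3% and 14.6%, against 9.47% and 10.4% of all tests). The list of leukotriene enzymes was called higher 2 times and lower 40 times in 135 tests (1.48% and 29.6%). It also holds Cotl1, a coactosin-like protein, with 5 of the lower calls and 1 of the higher. Prostanoid synthases were called higher 2 and lower 29 times in 135 (1.48% and 21.5%). Lta4h, which makes leukotriene B4, was lower in 10 of 15 tissues (-0.38 to -0.84), and Mgst3, a microsomal glutathione transferase, in 7. Fam213b, a prostaglandin F synthase, was lower in 8 (-0.52 to -1.84), and Ptgr2, a prostaglandin reductase, in 6. In contrast the list of resolution genes was called higher 35 times and lower 5 times in 89 tests (39.3% and 5.62%), led by the formyl peptide receptor Fpr2 in 13 tissues (0.82 to 3.62) and Anxa1, the glucocorticoid-induced annexin A1, in 10 (0.32 to 1.77). Neutrophils and monocytes express Fpr2 and Fpr1. Beside Fpr2, neutrophil markers were called higher in lung (14 of 14), spleen (9 of 14) and skin (7 of 13). Fewer were higher in liver (6 of 13), white fat (6 of 14), thymus (5 of 14) and brown fat (3 of 13). Kidney (3 of 13), small intestine (3 of 12), heart (2 of 13) and muscle (1 of 13) had few. In lymph node 2 of 13 were higher and 1 lower, and in bone marrow 1 of 14 higher and 8 lower. Of 8 monocyte markers 5 were called higher in bone marrow and 4 each in lymph node, spleen, liver and lung. Among these tissues lung had 2 lower, liver 0 and each of the others 1. In the other tissues named here 1 to 3 monocyte markers were higher and 0 to 2 lower. The part of these cells in the rise of this list was not tested. Medians of the change were -0.30 for leukotriene enzymes, -0.23 for synthases and 0.49 for the resolution list, against -0.02 over all genes.

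Prostanoid transport and breakdown gave 7 higher and 14 lower calls in 105 tests (6.67% and 13.3%), prostanoid receptors 4 and 14 in 73 (5.48% and 19.2%), leukotriene receptors 5 and 0 in 30 (16.7% higher), and other lipoxygenases 0 and 3 in 73 (4.11% lower). Phospholipases A2 were called higher 28 and lower 12 times in 162 tests (17.3% and 7.41%), although the median change of that list was -0.09. The largest rises on these lists besides Fpr2 in lung (13.6 to 172.7, change 3.62) were the secreted phospholipases Pla2g2a in colon (2.68 to 39.9, change 3.46) and Pla2g5 in small intestine (1.51 to 20.8, change 3.27), and Fpr1 in lung (10.2 to 100.5, change 3.22). The largest falls were the aldo-keto reductase Akr1c18 in skin (170.1 to 19.1, change -3.23) and lymph node (25.4 to 3.05, change -2.53), the EP3 receptor Ptger3 in white fat (18.9 to 2.52, change -2.56) and the prostaglandin F receptor Ptgfr in skin (13.2 to 1.80, change -2.34). Between genotypes 29 tests were higher and 17 lower (3.62% and 2.12%), near the 3.24% and 2.32% of all tests. Of the higher ones 15 were on the list of leukotriene enzymes, 4 of them Cotl1. Anxa1 in white fat was lower in TNFKO LPS mice, at 301.7 against 1112 in LPS mice (difference -1.76, SE 0.23, adjusted p = 7.2e-05).

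Over the 45 group means, which share mice and scaling, each gene was also compared with 13819 others as a description. Alox5ap was most like Ear2 (Pearson r = 0.942), and Alox5 was most like Ear2 (0.847) and Alox5ap (0.836). Ptgds was most like Ndrg4 (0.969), Ptgis like Higd1b (0.866), Ptger4 like Pycard (0.856) and Hpgd like Fendrr (0.832). Ptges was most like Fam129b and next most like Lep (0.766), Pla2g4a like Ap3b1 (0.812), Ptgs1 like Elovl1 (0.788) and Ptgs2 like Usp54 (0.748), the lowest of the 10.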

How the data were processed

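The authors deposited 1 table per tissue and 1 of all libraries, equal in 2488500 of 2488500 cells compared. The deposited signal values are named CPM, but their library sums run from 703690 to 1603067, so they are treated as a signal scaled by the authors. All values were whole multiples of 1 step per library (100% within 0.1), which gave back the counts. FastQC, MultiQC, edgeR and mm10 are named without versions in the submitters' processing notes, and no source used here names the aligner. The primer carried a 10 bp molecular identifier per the labels, and whether counts were collapsed by it is not stated. The range and median of total counts are in the report. The 270 replicate pairs differed by more than counting error (lowest chi-squared per degree of freedom 1.15).

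Values were tested as log2(signal + 1) with limma 3.58.1 (trend) in R 4.3.3, per tissue, keeping genes that reached a signal of 1 in 4 or more of 12 libraries, with 9 residual degrees of freedom and Benjamini-Hochberg adjustment over all genes of a tissue and comparison (threshold 0.05). Changes on this scale understate those of low genes. Differences among tissues came from a joint fit of 45 groups (135 degrees of freedom), by moderated F and by each tissue against the mean of the other 14. Alternatives were a pseudocount of 0.25, no filter, median-of-ratios rescaling, 2 groups alone, edgeR 4.0.16 on recovered counts, each mouse left out, brown fat without mice 7 and 8, and mouse as a replicate block. The fits were tested on simulated data. Gene positions are from GENCODE M21.

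The 10 genes were tested in every tissue and comparison. From the other pathway genes the rule picked for each comparison, separately by direction, the 6 called in the most tissues and the 4 largest changes without overlap at a mean of at least 10, and the text names part of these; likeness gives up to 3 genes per member. The genes, lists and tests were chosen with earlier results of these data known.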

Additional observations from a re-analysis of the deposited data

Results flagged for a closer look

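In 9 of 241 groups of 4 mice with a mean signal of at least 10, 1 library stood apart from the other 3 by Dixon's test, where chance gives about 1 in 20 groups. Of these, 5 were Alox5ap: mouse 9 in TNFKO LPS lung at 140 (others 267 to 278), mouse 5 in LPS bone marrow at 488 (566 to 572), mouse 5 in LPS heart at 29.2 (32.7 to 33.2), mouse 1 in PBS liver at 40 (18.6 to 21.2) and mouse 1 in PBS muscle at 35.8 (29.5 to 30.4). Pla2g4a gave mouse 10 in TNFKO LPS thymus at 11.6 (9.66 to 9.90) and mouse 11 in TNFKO LPS lymph node at 14.1 (16.4 to 16.8). Ptger4 gave mouse 8 in LPS thymus at 6.05 (14.7 to 15.9), and Ptgds gave mouse 6 in LPS skin at 80.4 (69.1 to 69.9).

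The change after LPS differed among tissues by the moderated F test for Hpgd (adjusted p = 6.7e-23), Alox5ap (3.8e-10), Ptgs2 (3.2e-06), Ptgs1 (6e-06), Pla2g4a (0.003) and Ptges (0.0054). The difference between TNFKO LPS and LPS mice differed among tissues for Hpgd (4.2e-06), Ptgs2 (0.0015) and Ptgds (0.022).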

How the results depend on the processing

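No result changed direction where it was called. For TNFKO LPS against LPS the 8 calls became 5 after median-of-ratios rescaling and 5 to 9 without single mice. The 5 higher ones became 2 after rescaling, 3 with the 2 groups alone and 2 to 4 without single mice, and the 3 lower ones became 5 with edgeR and 1 to 5 without single mice. For TNFKO LPS against PBS the 16 higher calls became 10 to 15 without single mice. The 17 lower calls of other pathway genes between genotypes became 30 with edgeR and 10 to 25 without single mice, and the 5 pairs of gene and tissue that differed from other tissues between genotypes became 3 with a pseudocount of 0.25 and 3 to 6 without single mice. The causes were not tested. For LPS against PBS the 36 calls stayed at 31 to 39 without single mice. Over all genes, leaving out mouse 6 raised the genotype calls from 6479 higher and 4639 lower to 8633 and 6772. For LPS against PBS they went from 18942 and 20775 to 19569 and 21205. Leaving out any other single mouse lowered these counts.

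With mouse as a replicate block in the joint fit (within-mouse correlation 0.016), 7 in place of 6 genes differed among tissues after LPS, Ptgds joining at an adjusted p of 0.0499 from 0.0535, and 3 of 3 remained for the genotype difference. Rescaling moved the median change of all genes by less than 0.1 in each tissue. Depth limits the low genes: 8 groups of 4 libraries held 3 counts or fewer, among them Ptgs2 in PBS liver and spleen.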
